A study of Mus musculus with 2 samples.

Results

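The genes described here are 37 interferon-induced genes, chosen by symbol from a list that covers 7 roles, out of 27998 genes counted in single-cell transcriptomes of mouse fat. All 37 stood in the table once each, and each had at least 1 UMI (unique molecular identifier, 1 counted transcript) in either library. The cells were the stromal vascular fraction of epididymal white adipose tissue, which is the tissue without its adipocytes. They came from wild-type male C57BL/6J mice aged 18 weeks, fed a normal chow diet (NCD) or a high-fat diet (HFD) for 12 weeks. There was 1 library per diet, and the labels do not say how many mice each held. Diet and library therefore cannot be told apart, no test was made, and every interval covers counting error only.

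Interferons are secreted proteins that warn cells of infection. Type I interferons act through a complex that holds STAT2 and IRF9 and binds the interferon-stimulated response element (ISRE), and interferon gamma acts at the gamma-activated site (GAS). Their target genes encode sensors and blockers of virus growth, GTPases that attack vacuoles of microbes, the immunoproteasome that cuts peptides for class I molecules, and the chemokines Cxcl9 and Cxcl10, which draw T cells through the receptor CXCR3. In fat, macrophages, endothelial cells and adipose progenitors can all respond to interferons.

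The upstream sequences are shown because the members are grouped by their response to the same signals. RefSeq promoters (GRCm38.p6, 250 bases before each start and the 50 bases from it, 300 in all) were found for 30 of the 37 members. The ISRE-like letters GAAANNGAAA, or TTTCNNTTTC on the other strand, stood in the promoters of 18 of these 30 members. Some members have more than 1 promoter, and counted by promoter this is 19 of 35, or 54.3%, against 3.44% of 32851 promoters of the same length. The GAS-like letters TTCNNNGAA, which read the same on both strands, stood in 9 of the 30 members and in 9 of the 35 promoters, or 25.7%, against 8.30% of all promoters. Matches may overlap each other, 5 members held both motifs, and a match is a run of letters, not a shown binding site. In the lines below the matched letters are in capitals and each sequence runs 5′ to 3′ on the strand of its gene. The first 7 lines show ISRE-like letters of antiviral genes, GTPases and a chemokine, and the last 3 show GAS-like letters.
Isg15 (chr4:156200871-156200900, minus strand): gtaggaaaagGAAACCGAAAcagaaaatag
Ifit1 (chr19:34640794-34640823, plus strand): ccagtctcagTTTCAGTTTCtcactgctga
Ifit3 (chr19:34583397-34583426, plus strand): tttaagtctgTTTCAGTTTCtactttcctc
Bst2 (chr8:71537577-71537606, minus strand): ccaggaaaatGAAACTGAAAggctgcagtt
Gbp2 (chr3:142620594-142620623, plus strand): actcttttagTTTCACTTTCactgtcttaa
Gbp3 (chr3:142559989-142560018, plus strand): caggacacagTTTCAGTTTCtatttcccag
Cxcl10 (chr5:92349083-92349112, minus strand): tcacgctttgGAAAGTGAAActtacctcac
Irf1 (chr11:53769914-53769942, plus strand): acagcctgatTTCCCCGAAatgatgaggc
Gbp7 (chr3:142530239-142530267, plus strand): aagcagaagcTTCTCAGAAagtcagcaca
Psmb8 (chr17:34198088-34198116, plus strand): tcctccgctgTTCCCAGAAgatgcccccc

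Depth was greater in the NCD library, which had 33825653 UMIs over 7365 barcodes (median 4230), than in the HFD library, which had 18623508 over 6840 (median 2020). After filtering and removal of called doublets, 7161 NCD and 6383 HFD cells were kept, and 64 barcodes occurred in both libraries. Cells were named by clusters and markers as macrophages (1924 NCD and 2114 HFD), progenitors (3225 and 2980), endothelial cells (346 and 234), mesothelial cells (57 and 54), T cells (144 and 252) and B cells (66 and 126). Each name means a profile like that class. Every class held all of its own markers above 0 in both libraries. The summed level of mesothelial markers in the mesothelial class was 7259 CPM (UMIs per 1000000 of the summed UMIs) in the NCD and 2806 in the HFD library, and that of endothelial markers in the endothelial class was 7335 and 4212. Cells of 1 class fell largely into different clusters in each library. The largest macrophage cluster was 3.2 in the NCD (632 cells) and 14.1 in the HFD library (722 cells), the largest progenitor clusters, also 2 different ones, held 429 NCD and 1220 HFD cells, and the largest endothelial cluster 16.1 (131 cells) and 16.2 (134 cells). The largest clusters also differed for mesothelial cells (33 NCD and 38 HFD cells) and T cells (56 and 163 cells), while B cells shared theirs (58 and 69 cells).

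Free RNA, meaning transcripts of other cells caught in a droplet, was higher in the HFD library in every class. It was estimated from markers that the class should lack, 15 stromal ones, or 7 macrophage ones for progenitors and mesothelial cells, by dividing their level in the class by that in all cells of the library. The NCD and HFD values were 5.28% and 28.2% in macrophages, 2.65% and 24.1% in progenitors, 6.91% and 63.3% in endothelial cells, 5.17% and 29.7% in mesothelial cells, 7.25% and 46.9% in T cells, and 4.74% and 27.0% in B cells. This is a ratio of marker levels, not a measured share, and it reached 101% in endothelial cluster 16.2 of the HFD library. What part of it is free RNA was not tested. Values after subtraction of the library profile in that proportion are given beside results that it changes. Subtraction may remove too much, and it took the interferon-induced gene Ifi27l2a from 353 to 0 CPM in HFD endothelial cells. The 7 macrophage markers, which were not used for subtraction in endothelial cells, gave the reverse order there, 63.1% (NCD) and 51.7% (HFD).

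Levels are CPM of the summed counts of a class. A member was called higher or lower where it reached 10 CPM in either library, differed by at least 1.5-fold and had a 95% interval of the HFD over NCD ratio that left out 1. Of the 37 members, 28 were called lower in the HFD library in at least 1 of the 6 classes, 8 were called higher in at least 1, and 4 of these were called both ways in different classes. Over the 36 members that reached 10 CPM in at least 1 class these are 77.8% lower and 22.2% higher, beside 37.0% and 21.2% of the 11030 genes that did. Irf9 and Igtp overlap the counted genes Rnf31 and Irgm2 on the same strand, so their reads may be partly shared. Irf7 and Cxcl10 overlap Phrf1 and Art3 on the opposite strand, and whether any reads were shared there was not tested. Mx1 did not reach 10 CPM in any of the 6 classes, and 18 members did in all of them. The members together made up 5053 CPM of the NCD and 4448 CPM of the HFD library. Most of it came from the membrane proteins Ifitm2, Ifitm3 and Ly6e. The antiviral subset, used for summed levels and shares of cells, has 15 genes. It holds Isg15, Ifit1, Ifit2, Ifit3, Oasl2, Oas1a, Mx1, Rsad2, Usp18, Xaf1, Ifi44 and Rtp4 of the antiviral effectors, with Irf7, Zbp1 and Cxcl10. It leaves out the effectors Ifi35, Parp14 and Trim30a, and antiviral genes counted per cell are those of this subset. A further subset of 11 genes holds the 6 GTPases, Psmb8, Psmb9, Tap1, Irf1 and Cxcl9.

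**Figure D1:**
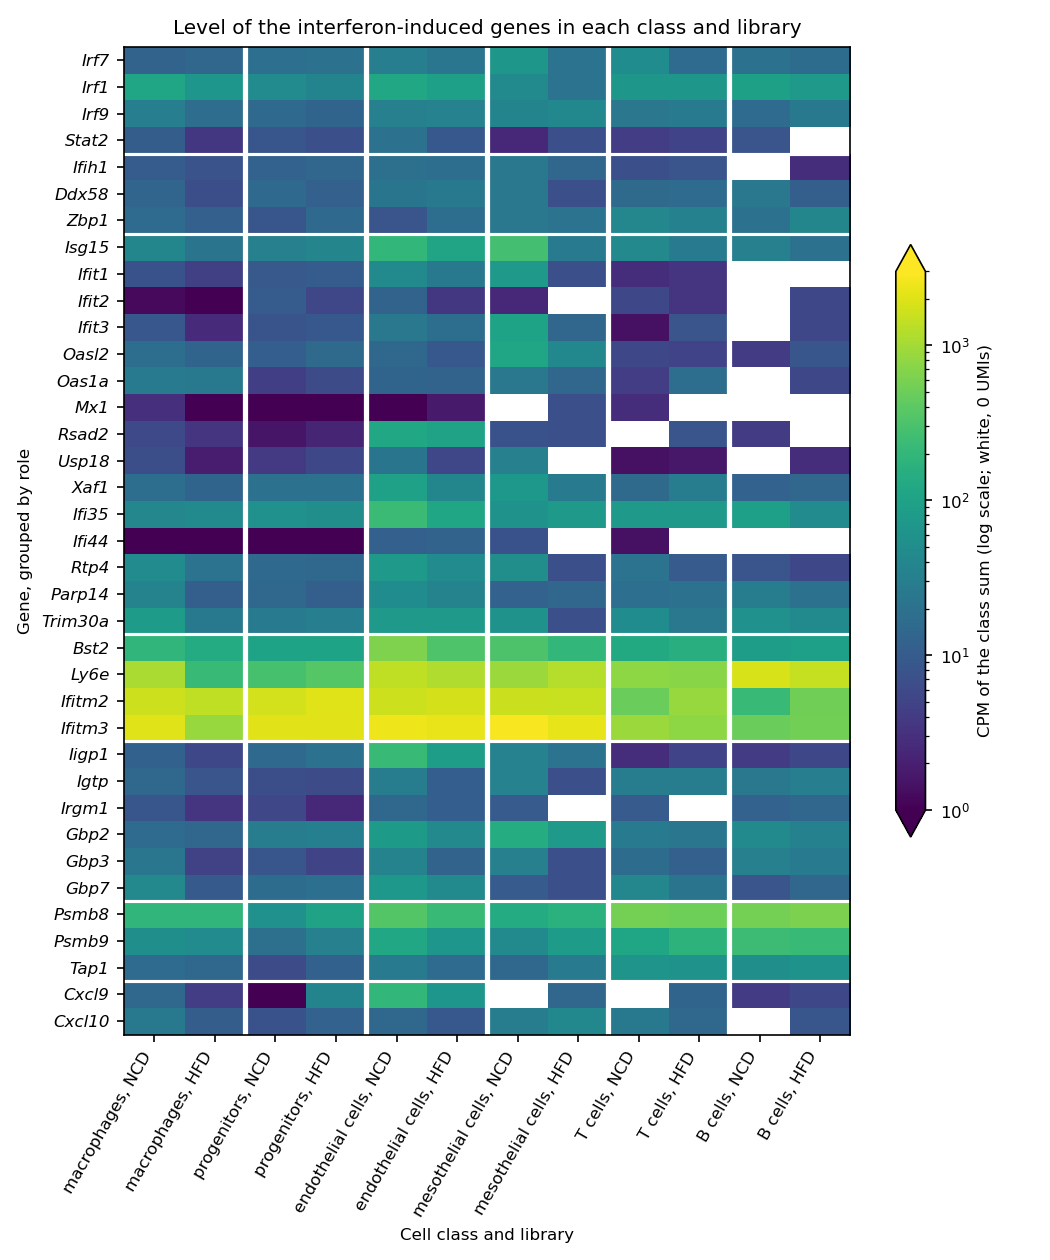
Level of each of the 37 genes in 6 cell classes of the NCD and HFD libraries, in CPM of the class sum on a log colour scale, with white for 0 UMIs. Ifitm2, Ifitm3 and Ly6e are bright in every column, and Rsad2 is bright in endothelial cells (118 and 101 CPM).

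Across the 6 classes, endothelial cells held the highest level of 15 members in the NCD and of 20 in the HFD library. Mesothelial cells held that of 13 and 5. Rsad2, which encodes viperin, a blocker of virus assembly, had its highest levels in endothelial cells, 118 CPM (NCD) and 101 CPM (HFD), and was at no more than 8.32 CPM in the other 5 classes of either library. Iigp1, a GTPase that disrupts vacuoles of parasites, was at 220.3 CPM in NCD endothelial cells, against 34.7 CPM in NCD mesothelial cells, which were next. Among the 6 classes, Psmb8, an immunoproteasome subunit, had its highest levels in B cells, at 567 CPM (NCD) and 615 CPM (HFD). T cells were next, at 562 and 518 CPM. Outside these classes, natural killer cells (63 NCD and 21 HFD cells) were at 626 and 582 CPM. Monocytes, which are not among these 6 classes, held 67 NCD and 76 HFD cells. Their members summed to 14822 CPM in the NCD and 9060 CPM in the HFD library, above each of the 6 classes.

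In macrophages, of 29 members that passed the filter, 16 were called lower in the HFD library and 13 were not called. The lower calls are 55.2%, against 23.7% of all 7481 genes, and 0 were called higher, against 16.3%. Their median log2 HFD over NCD was −0.81, and that of all genes was −0.07. The median was −0.84 after free RNA was subtracted, and −0.77 in clusters with free RNA at or below 25%, which keep 600 of the 2114 HFD macrophages.

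Of the membrane proteins that restrict viruses, 2 of 4 were called lower. Ly6e, a surface protein, went from 1072 CPM (NCD) to 219 CPM (HFD) in macrophages and was 4.89-fold lower (interval 4.62 to 5.17). Ifitm3, which traps incoming viruses in endosomes, was at 2011 and 876 CPM, 2.30-fold lower (2.23 to 2.37). Its neighbour Ifitm2 on chromosome 7, whose reads can be mistaken for those of Ifitm3, was at 1616 and 1378 CPM and was not called. Bst2, which encodes tetherin and holds budding viruses on the cell surface, was at 194 and 138 CPM and was not called at 1.41-fold lower (1.29 to 1.53). Among the 4 membrane genes, then, Ly6e and Ifitm3 passed the rule for lower and Ifitm2 and Bst2 lay within 1.5-fold.

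Within clusters that held cells of both libraries, these class values were repeated only in part or not at all. In the 4 macrophage clusters with at least 20 cells of each library, the NCD and HFD levels of Ly6e were 903 and 860.5 CPM in cluster 3.0 (543 and 22 cells), 1680 and 1753 CPM in cluster 3.2 (632 and 23 cells), 25.5 and 88.8 CPM in a cluster of 24 and 312 cells and 819 and 214 CPM in cluster 21.2 (36 and 50 cells). Of these 4, Ly6e was lower in the HFD cells by at least 1.5-fold in cluster 21.2 only. For Ifitm3 the levels were 2053 and 2381, 2194 and 3432, 908 and 647, and 966 and 534 CPM in the same order. Isg15 was at 17.5 and 26.1, 31.4 and 42.0, 8.49 and 15.2, and 24.4 and 27.3 CPM, higher in the HFD cells of all 4. Summed levels of the antiviral subset were 161 and 269, 184 and 378, 110.3 and 129, and 122 and 195 CPM, also higher in all 4. Those of the subset of GTPases, immunoproteasome genes, Tap1, Irf1 and Cxcl9 were 447 and 426, 434 and 409, 289 and 433, and 566 and 476 CPM. The clusters that hold most cells differ between the libraries and move with these class values, and 16 members were among the variable genes used in the clustering.

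Among regulators, 3 of 4 were called lower in HFD macrophages. Irf1, a transcription factor induced most by interferon gamma, was at 110.1 and 66.3 CPM, 1.66-fold lower (1.48 to 1.87). Immediate early genes, which tissue digestion can raise, were called lower for 11 of 17 in these cells, and their part in the Irf1 value was not tested. Irf9 and Stat2, both parts of the factor that binds the ISRE, were 1.76-fold (1.40 to 2.22) and 2.95-fold (1.84 to 4.87) lower, while Irf7 was at 12.6 and 14.1 CPM. Of the 6 GTPases, 5 passed the filter and 4 were called lower. Gbp3 was at 23.5 and 4.70 CPM (fold lower 3.40 to 7.59), and Gbp7 was at 42.7 and 9.69 CPM, 4.40-fold lower (3.36 to 5.86). Both guanylate-binding proteins coat pathogen vacuoles, and their counts can share reads with other copies of that family. Trim30a, an antiviral ubiquitin ligase, was at 81.3 and 25.1 CPM, 3.23-fold lower (2.72 to 3.86), and Trim30d is a close copy.

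Genes of antigen processing were among the 13 of 29 members that were not called in macrophages. Psmb8 was at 194 CPM in the NCD and 196 CPM in the HFD library, with a ratio interval of 0.935 to 1.09. Psmb9 was at 54.5 and 47.7 CPM and Tap1, the peptide pump, at 16.2 and 14.4 CPM. Of these 3, 0 were called, beside 23.7% of all genes called lower and 16.3% called higher. The antiviral effectors gave 4 lower calls among 8 that passed the filter. Isg15, a ubiquitin-like protein joined to other proteins, was at 39.1 and 21.5 CPM, 1.82-fold lower (1.48 to 2.24), whereas Oas1a and Ifi35 were at 25.9 and 25.4 CPM and at 40.6 and 44.5 CPM. Oas1a has the close copy Oas1g.

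Chemokine counts in macrophages rested on few cells. Cxcl9 was at 14.6 CPM in the NCD and 4.24 CPM in the HFD library, but 101 of the 106 NCD UMIs lay in 2 cells, with 85 in 1 of them. The other 1922 NCD macrophages held 5 Cxcl9 UMIs (0.688 CPM), and the 2114 HFD macrophages held 28, with at most 3 in a cell. Without those 2 cells the direction of the Cxcl9 difference is the opposite one, and after free RNA was subtracted the HFD macrophages were at 0 CPM. Iigp1 was similar, with 73 of 87 NCD UMIs in 10 cells, and Cxcl10 had 84 of 186 in 10 cells.

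A small share of NCD macrophages held several antiviral transcripts at once. Every cell was thinned to 1400 UMIs. At least 3 of the 15 genes of the antiviral subset were then seen in 23 of 1924 NCD macrophages (1.2%, exact Clopper-Pearson interval 0.759% to 1.79%). In the HFD library this was so for 10 of 2114 macrophages (0.473%, 0.227% to 0.868%). Without thinning these shares were 5.09% and 2.08%. Of the 23 NCD cells, 14 lay in cluster 3.1 (239 NCD cells), where Isg15 was at 122 CPM against 17.5 CPM in cluster 3.0 (543 NCD cells) and 31.4 CPM in cluster 3.2. Isg15 is 1 of the 15 genes, and members were among the variable genes used in the clustering, so these values are a description. Among NCD macrophages with an Ifit3 UMI, 5 of 17 also had Isg15 (29.4%), against 3.25% of those without Ifit3.

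**Figure D2:**
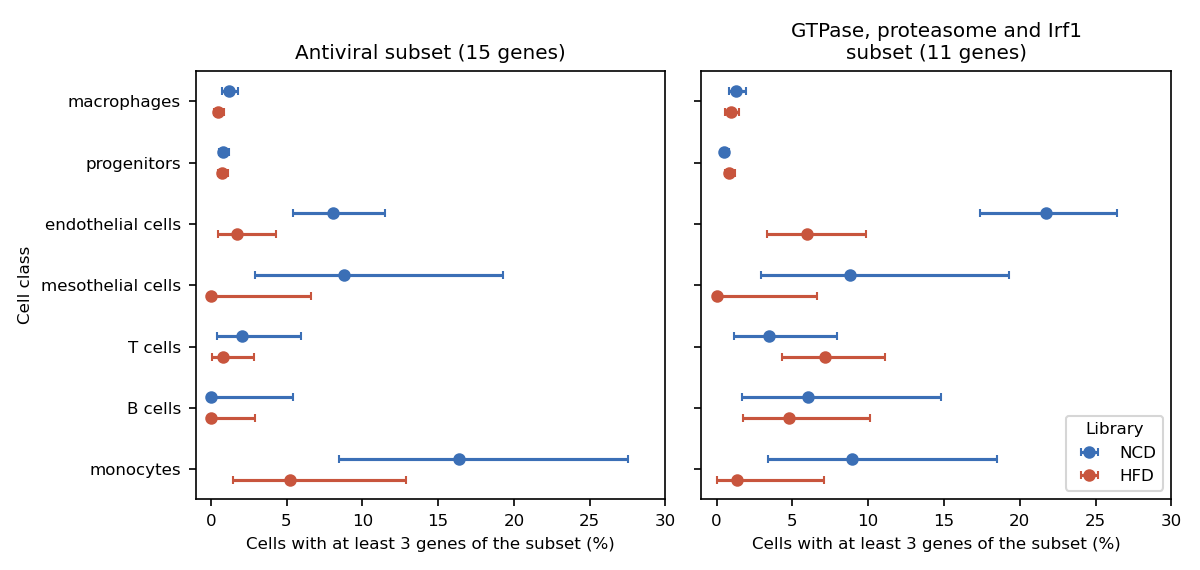
Percentage of cells with at least 3 genes of a subset. The antiviral subset is on the left, and the subset of GTPases, immunoproteasome genes, Tap1, Irf1 and Cxcl9 on the right. Each cell was thinned to 1400 UMIs. Points are libraries and bars are exact 95% intervals, and NCD endothelial cells are at 8.09% and 21.7% against 1.71% and 5.98% in the HFD library.

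Endothelial cells lining the vessels were the class with the most members above 10 CPM, 36 of 37. As counted, 14 were called lower in the HFD library, which is 38.9%, against 11.1% of all 8654 genes, and 0 were called higher, against 8.45%. The median log2 HFD over NCD was −0.67, beside −0.14 for all genes. It was 0.04 after free RNA was subtracted and −0.30 in clusters with low free RNA, which keep only 26 of the 234 HFD endothelial cells. The direction over the members in this class thus differs between these values. Macrophage markers in the endothelial class were at 63.1% (NCD) and 51.7% (HFD) of the library level, so both libraries carried macrophage transcripts there, and their part in the result was not tested.

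Cxcl9 was spread over many NCD endothelial cells. Its level was 199.6 CPM (NCD) and 66.9 CPM (HFD), 2.98-fold lower (2.11 to 4.33). In the NCD library 140 of 346 cells had a Cxcl9 UMI, with at most 7 in a cell, and after subtraction the levels were 213 and 148 CPM. Unlike the macrophage counts, these did not rest on a few cells.

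Iigp1 was at 220.3 and 88.6 CPM in endothelial cells, 2.49-fold lower (1.83 to 3.44), but at 235 and 216 CPM after subtraction. Bst2 was at 640.3 and 331 CPM, 1.93-fold lower (1.65 to 2.28), and at 676 CPM in both libraries after subtraction. Xaf1, a partner of inhibitors of apoptosis, was at 99.1 and 39.8 CPM, 2.49-fold lower (1.58 to 4.11), and Ifi35 was at 233 and 114 CPM, 2.04-fold lower (1.55 to 2.72). After subtraction Xaf1 was at 105 and 77.5 CPM and Ifi35 at 246 and 220.3 CPM. The immunoproteasome genes moved least under subtraction. Psmb8 was at 352 and 219 CPM as counted (1.61-fold lower, 1.31 to 1.98) and at 363 and 231 CPM after subtraction, and Psmb9 was at 119.8 and 66.9 CPM as counted and at 124 and 71.7 CPM after it. Ifitm3 (2412 and 2292 CPM), Ifitm2 (1636 and 1816 CPM) and Ly6e (1380 and 1145 CPM) were the highest members and were not called. After subtraction Ifitm3 was at 2445 and 3642 CPM and Ly6e at 1441 and 2426 CPM, higher in the HFD library.

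Per cell, at least 3 antiviral genes were seen after thinning in 28 of the 346 NCD endothelial cells (8.09%, 5.44% to 11.5%). In the HFD library this was so for 4 of 234 (1.71%, 0.468% to 4.32%), and without thinning the shares were 24.9% and 5.56%. The subset of GTPases, immunoproteasome genes, Tap1, Irf1 and Cxcl9 has 11 genes. For it the counts were 75 NCD cells (21.7%, 17.4% to 26.4%) and 14 HFD cells (5.98%, 3.31% to 9.83%). Cluster 16.2, with 134 HFD cells and stromal markers at 101% of the library level, held 0 of the 4 HFD cells. Within cluster 16.1, where both libraries had cells, the share was 13.7% of 131 NCD and 8.57% of 35 HFD cells. Isg15 was at 317 and 243 CPM there and free RNA at 12.2% and 29.8%. In cluster 16.0 the share was 6.78% of 118 NCD and 5.88% of 17 HFD cells. In cluster 16.4 it was 0% of 21 NCD and 0% of 39 HFD cells. B cells, in which these 15 genes summed to the lowest level of the 6 classes, had 0 of 66 NCD cells and 0 of 126 HFD cells, for which 3 counts give limits of 4.55% and 2.38% and the exact intervals end at 5.44% and 2.89%. Without thinning 0 and 2 B cells did.

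**Figure D3:**
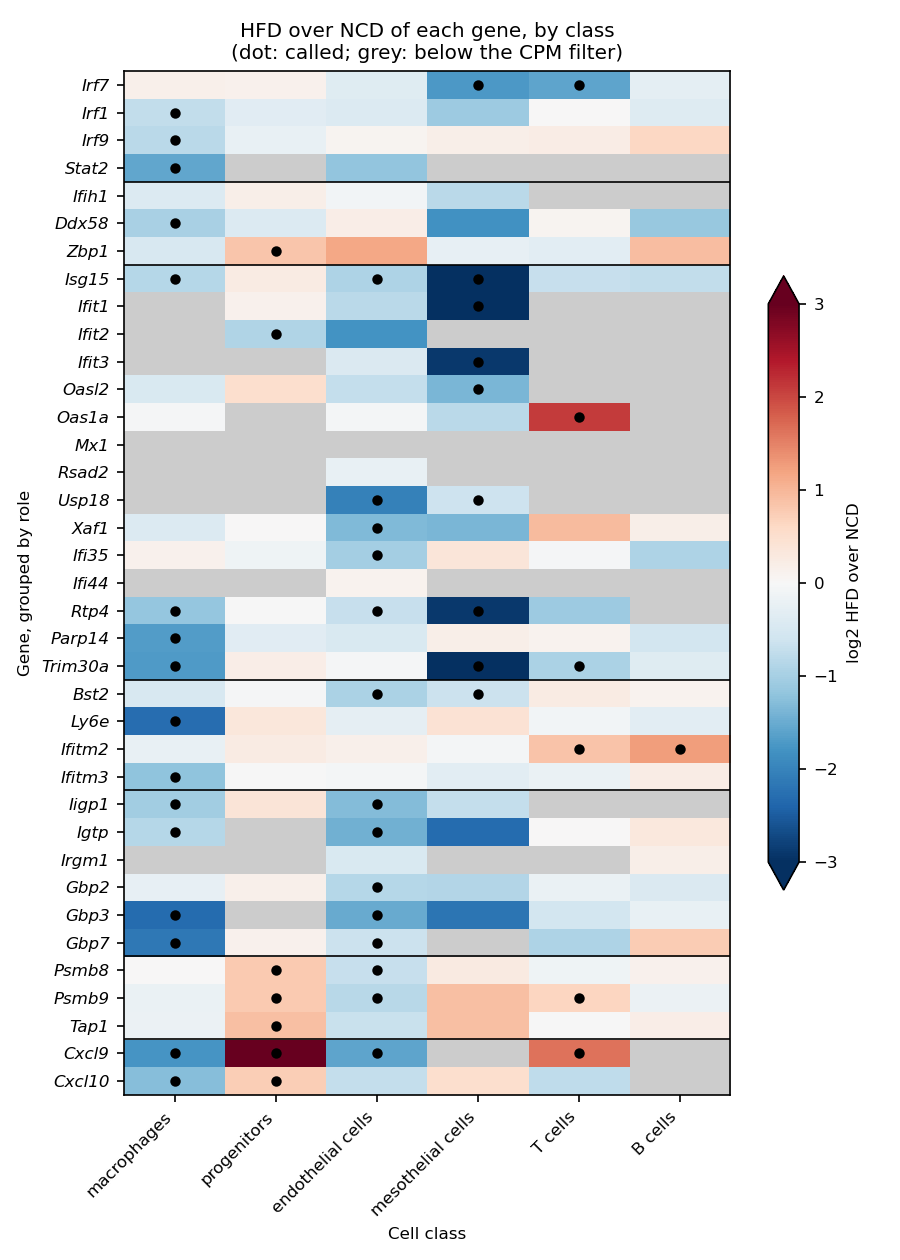
log2 HFD over NCD of each of the 37 genes (rows) in 6 classes (columns), with black dots on called genes and grey where a gene stayed below 10 CPM. All dotted fields are blue (lower in HFD) in the macrophage, endothelial and mesothelial columns, and the progenitor column has 6 red dotted fields and 1 blue one.

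In progenitors, the fibroblast-like cells that can form adipocytes, most members were close to equal. Of 27 members past the filter, 6 were called higher in the HFD library, which is 22.2%, against 8.20% of all 8075 genes, and Ifit2 alone was called lower, which is 3.70%, against 15.3%. The median log2 HFD over NCD was 0.15, beside −0.21 for all genes. After free RNA was subtracted it was 0.25, and with the scale set by the median gene, a shift of 0.21, it was 0.36.

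The 3 members of antigen processing, which are neighbours on chromosome 17, were each called higher in HFD progenitors. Psmb8 (chr17:34197721-34201454) was at 57.4 CPM in the NCD and 99.5 CPM in the HFD library, 1.73-fold higher (1.57 to 1.92). Psmb9 (chr17:34181987-34187764) was at 19.0 and 32.5 CPM, 1.71-fold higher (1.44 to 2.04), and Tap1 (chr17:34187553-34197225) was at 6.42 and 12.1 CPM, 1.88-fold higher (1.40 to 2.53). Tap1 and Psmb9 overlap on opposite strands, with starts 211 bases apart, and whether any reads were shared was not tested. After free RNA was subtracted the levels were 53.5 and 63.8 CPM for Psmb8, 17.8 and 22.4 CPM for Psmb9, and 6.06 and 9.51 CPM for Tap1. All 3 stayed higher, with Psmb8 and Psmb9 under 1.5-fold. In clusters with low free RNA their log2 values were 0.52, 0.53 and 1.00.

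Zbp1, a sensor of Z-form nucleic acid, was at 8.49 and 15.2 CPM in progenitors, 1.79-fold higher (1.38 to 2.32). The highest members were Ifitm3 (2125 and 2096 CPM), Ifitm2 (1717 and 2036 CPM) and Ly6e (289 and 365 CPM), and their differences were below 1.5-fold. Ly6e was thus 1.26-fold higher in HFD progenitors and 4.89-fold lower in HFD macrophages. At least 3 antiviral genes were seen in 26 of 3225 NCD progenitors (0.806%, 0.527% to 1.18%) and 22 of 2980 HFD progenitors (0.738%, 0.463% to 1.12%).

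The 2 chemokines were called higher in HFD progenitors, and 1 small cluster held most of their difference. Cxcl9 (chr5:92321347-92328079) had 11 UMIs among NCD progenitors, 0.713 CPM, and 274 among HFD progenitors, 36.8 CPM. Of the 274, 222 (81.0%) lay in 6 cells with 17 to 50 UMIs each. These cells belong to cluster 2.0, which held 11 HFD cells and 0 NCD cells, and whose 10 leading genes include Cxcl9, Cxcl10, Iigp1, Gbp2 and Ifit3. Because these members helped to define the cluster, its levels are given as a description. Without the cluster Cxcl9 was at 6.74 CPM in HFD progenitors, a log2 value of 3.24 in place of 5.69, and Cxcl10 changed from a log2 value of 0.73 to −0.34.

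Within the 11 cells 2 patterns were seen. Cxcl9 UMIs, from the highest cell to the lowest, were 50, 44, 43, 35, 33, 17, 1, 1, 0, 0 and 0. Cxcl10 was in 8 cells, the same 8 that held Cxcl9. Ifit1 or Ifit3 was in the other 3 cells, and 0 of those held Cxcl9 or Cxcl10. Iigp1 was in all 11, with 1 to 7 UMIs, and Isg15 in 10. Gbp2 was in 9 cells, at 2161 CPM against 25.7 CPM in the other 2969 HFD progenitors. Dcn, which encodes the matrix protein decorin, was in all 11 at 9230 CPM, against 11315 CPM in the other progenitors. Col1a1, Pi16 and Pdgfra were further below the other progenitors, on few UMIs. Col1a1 was at 1036 against 1900 CPM (23 UMIs in the 11 cells), and Pi16 at 225 against 861 CPM (5 UMIs). Pdgfra, at 204 CPM in the other progenitors, had 1 UMI in the 11 cells. The leukocyte gene Ptprc, the T cell gene Cd3e and the endothelial gene Pecam1 were at 0 UMIs, and the macrophage gene C1qa was at 315 CPM, against 358 CPM in the other progenitors. The cells held 1439 to 2473 UMIs, with a median of 1976. When clustered without interferon genes, the 11 cells fell into 3 clusters of the progenitor class.

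**Figure D4:**
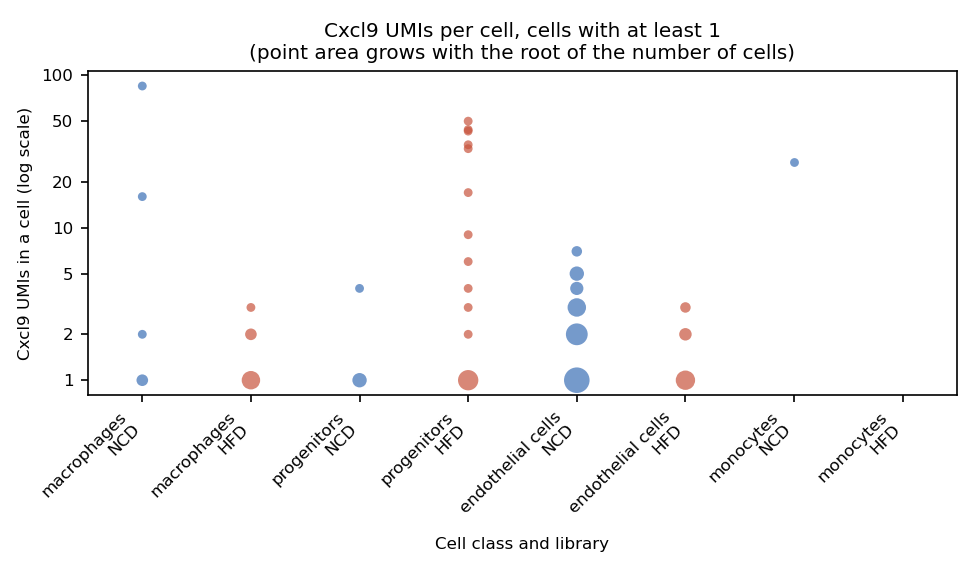
Cxcl9 UMIs in each cell that held at least 1 (log scale), by class and library, with point area growing with the root of the number of cells. The HFD progenitors include 6 cells with at least 10 UMIs and the NCD macrophages 2, while NCD endothelial cells reach at most 7.

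Mesothelial cells, which form the outer lining of the fat pad, were few, and most of their calls were antiviral effectors. Of 29 members past the filter, 9 were called lower in the HFD library, which is 31.0%, against 6.76% of all 8523 genes, and 0 were called higher, against 5.34%. The median log2 HFD over NCD was −0.82, beside −0.09 for all genes, and −0.49 after free RNA was subtracted. Of these 9, 7 were among the 11 antiviral effectors that passed the filter. Progenitor markers summed to 19063 CPM (NCD) and 16631 CPM (HFD) in this class, above its own markers. Of the 54 HFD cells, 38 lay in cluster 0.2, which held 2 NCD cells. Its 10 leading genes include Crisp1, Akr1b7 and Spink8, which did not lead clusters 0.0 and 0.1, where the other cells lay. Cluster 0.1 held 22 NCD and 16 HFD cells, with a median of 2018 UMIs in the HFD cells. There the antiviral subset summed to 918 and 329 CPM, with Isg15 at 244 and 23.5 CPM. Gbp2 (145 and 165 CPM) and Cxcl10 (72.7 and 94.1 CPM) were higher in the HFD cells of that cluster. The part of the difference in cells between the libraries in the calls was not tested.

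Isg15 was at 275 CPM in the NCD and 28.0 CPM in the HFD mesothelial cells, 9.82-fold lower (3.73 to 36.7), from 111 and 4 UMIs. Ifit3, an RNA-binding antiviral protein, had 42 and 2 UMIs, 7.43-fold lower (1.93 to 63.3), and Ifit1 had 30 and 1 UMIs, 10.6-fold lower (1.76 to 433). Ifit3b is a close copy of Ifit3. Trim30a had 24 and 1 UMIs, and Rtp4, a chaperone of receptors, had 21 and 1. These counts were not spread evenly, since the 10 NCD cells highest for Isg15 held 90 of its 111 UMIs, and the 10 highest for Ifit3 held 40 of its 42. After thinning, 5 of 57 NCD mesothelial cells held at least 3 antiviral genes (8.77%, 2.91% to 19.3%), and 0 of 54 HFD cells did, for which 3 counts give a limit of 5.56% and the exact interval ends at 6.60%. Without thinning these were 45.6% and 1.85%. Ly6e was at 903 and 1224 CPM, but 80 of its 175 HFD UMIs lay in 1 cell. Ifitm3 was at 2782 and 2225 CPM and Ifitm2 at 1604 and 1532 CPM, and neither was called.

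Among lymphocytes few members differed. In T cells 25 members passed the filter, 4 were called higher, which is 16.0%, against 9.80% of all 7763 genes, and 2 of 25 were called lower, against 11.4%. In B cells 22 passed, 1 was called higher, which is 4.55%, against 4.52% of all 7463 genes, and 0 were called lower, against 2.87%. These shares are near those of all genes in B cells. The median log2 HFD over NCD was −0.04 in both classes, beside −0.10 for all genes in T cells and 0.00 in B cells.

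Ifitm2 was called higher in both lymphocyte classes as counted, at 477 and 861 CPM in T cells, 1.81-fold higher (1.57 to 2.08), and at 219 and 522 CPM in B cells, 2.38-fold higher (1.74 to 3.29). After free RNA was subtracted the order turned, to 399 and 178 CPM in T cells and 157 and 109 CPM in B cells. Psmb9 was at 111 and 175 CPM in T cells, 1.57-fold higher (1.16 to 2.14), and at 115 and 272 CPM after subtraction. Oas1a, which makes the second messenger that activates RNase L, had 3 and 11 UMIs in T cells. Cxcl9 had 0 UMIs in NCD and 8 in HFD T cells, at least 3.12-fold higher with the count of 0 set to 3 for the class, and 7.35 CPM remained in the HFD library after subtraction. Irf7, the factor that sustains type I interferon responses, was at 49.8 and 16.6 CPM, 2.99-fold lower (1.45 to 6.78), with 30 of the 35 NCD UMIs in 10 cells, and Trim30a had 34 and 15 UMIs, 1.94-fold lower (1.03 to 3.83). As counted, the highest members in T cells were Ifitm3 (894 and 774 CPM), Ly6e (759.9 and 719 CPM), Psmb8 (562 and 518 CPM) and, in the HFD library, Ifitm2. After subtraction Ifitm3 was at 810.2 and 124 CPM in T cells. Its level differed between T cell clusters, at 156 CPM in cluster 12.0 (45 NCD cells) and 92.0 and 154 CPM in cluster 13.3 (31 NCD and 74 HFD cells), but 1211 CPM in cluster 13.1 (56 NCD cells) and 1700 and 1060 CPM in cluster 13.2 (12 NCD and 163 HFD cells). The 10 leading genes of cluster 13.1 include the myeloid genes Lyz1, Ccl17 and Retnla beside T cell genes. All 10 macrophage markers were above 0 in the T cell class and summed to 1605 and 2961 CPM, and their part in the Ifitm3 level was not tested. In B cells Ly6e was at 1837 and 1469 CPM, Psmb8 at 567 and 615 CPM, and Ifitm3 at 476 and 553 CPM.

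The subset of GTPases, immunoproteasome genes, Tap1, Irf1 and Cxcl9 was common in lymphocytes. At least 1 of the 11 genes was seen in 69.4% of NCD and 63.1% of HFD T cells after thinning. At least 3 were seen in 5 of 144 NCD T cells (3.47%, 1.14% to 7.92%) and 18 of 252 HFD T cells (7.14%, 4.29% to 11.1%), with intervals that overlap. Without thinning the order turned, to 31.2% of NCD and 15.9% of HFD T cells. Antiviral genes showed 3 of 144 cells and 2 of 252.

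Monocytes, which enter fat from the blood, had the highest antiviral share after thinning. At least 3 antiviral genes were seen in 11 of 67 NCD monocytes (16.4%, 8.49% to 27.5%) and 4 of 76 HFD monocytes (5.26%, 1.45% to 12.9%). Without thinning these were 35.8% and 11.8%, below the 45.6% of NCD mesothelial cells. Isg15 was at 524 CPM in the NCD and 53.0 CPM in the HFD monocytes, with 110 of the 126 NCD UMIs in 10 cells. Irf7 was at 366 and 62.6 CPM, and Cxcl10 at 154 and 14.4 CPM. Cxcl9 had 27 UMIs in 1 NCD monocyte and 0 in the others of either library. Ifitm3 was at 6318 and 3843 CPM. All 67 NCD monocytes were in cluster 15.1, with free RNA at 2.44%. The HFD cells were split between that cluster (31 cells, 10.0% free RNA, Isg15 at 27.6 CPM) and cluster 15.3 (45 cells, 91.3%, Isg15 at 80.9 CPM), so the lower Isg15 level was present in both.

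**Figure D5:**
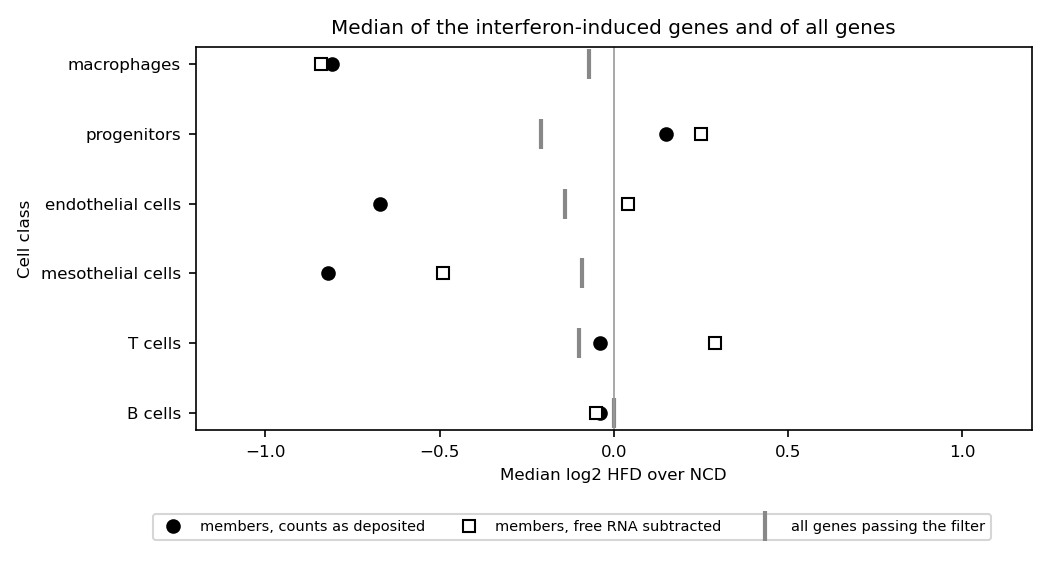
Median log2 HFD over NCD of the members that passed the filter in each class, as counted (filled circles) and after free RNA was subtracted (open squares), beside the median of all genes (grey bars). Macrophages stay near −0.8 in both, whereas endothelial cells change from −0.67 to 0.04.

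The ligands of the pathway were scarce. Of 21 interferon genes, Ifng, which encodes interferon gamma, had 32 UMIs in the NCD and 44 in the HFD library. In T cells it had 4 and 14 UMIs, 5.69 and 23.3 CPM, 4.09-fold higher (1.29 to 17.1), and natural killer cells held 22 and 9 UMIs. Ifnz had 4 and 1 UMIs, Ifnab 1 and 0, Ifne 0 and 1, and the other 17 type I and type III genes had 0 UMIs in either library, including Ifnb1. At this depth a count of 0 does not show that they were absent. The receptors were counted in all 6 classes apart from Ifnlr1, a subunit of the type III receptor, which had 1 and 2 UMIs. Ifngr1, which binds interferon gamma, had 5325 and 1489 UMIs in progenitors, 1.73-fold lower (1.63 to 1.83), at 485 and 286 CPM in T cells, 1.69-fold lower (1.41 to 2.05), and at 170.5 and 151 CPM in macrophages. Library totals of the other receptor genes were 910 and 457 UMIs for Ifnar1, 2795 and 1400 for Ifnar2, 1937 and 1300 for Ifngr2, and 2951 and 1651 for Il10rb.

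Among 12 kinases, STAT factors and brakes, 9 passed the filter in macrophages. Of these, 2 were called lower and 0 higher, beside 23.7% and 16.3% of all genes, so the lower share was near that of all genes. The 2 were Jak1, the kinase shared by all interferon receptors, at 147 and 83.2 CPM, and the feedback inhibitor Socs3, at 303 and 156 CPM. In progenitors 10 passed, and 2 were called higher and 0 lower, beside 8.20% and 15.3% of all genes. These 2 were Irf8 (5.25 and 27.9 CPM) and Ptpn6 (1.62 and 18.5 CPM), both abundant in leukocytes. After free RNA was subtracted Irf8 was at 3.09 CPM and Ptpn6 at 1.87 CPM in the HFD progenitors. In T cells 12 passed and 2 were called lower, beside 11.4% of all genes. The inhibitor Socs1 was 1 of the 2, at 61.2 and 30.0 CPM.

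A further 45 interferon-induced genes, 1 of them also in the list before, gave, in macrophages, 12 called lower and 1 higher among 24 that passed the filter, beside 23.7% and 16.3% of all genes. Epsti1 was at 133 and 45.4 CPM, 2.93-fold lower (2.57 to 3.34). Of the DNA-binding p200 family, Ifi203 was at 94.6 and 38.6 CPM and Ifi204 at 128 and 56.8 CPM. In progenitors 4 were called higher and 5 lower of 24, beside 8.20% and 15.3% of all genes, with Lgals3bp at 65.0 and 103 CPM and Ifitm1 at 57.3 and 25.3 CPM. In endothelial cells 1 was called higher and 3 lower of 33, beside 8.45% and 11.1%, with Slfn5 at 154 and 88.6 CPM and Nmi at 88.0 and 30.8 CPM. Mesothelial cells had 1 higher and 2 lower of 28 (5.34% and 6.76% of all genes), T cells 4 and 2 of 27 (9.80% and 11.4%), and B cells 1 and 2 of 24 (4.52% and 2.87%). Ifi204 was counted higher in HFD T cells, at 17.1 and 54.9 CPM, and was at 2.99 and 0.143 CPM there after subtraction. Of 12 genes of class I antigen presentation, 11 passed the filter in macrophages and 2 were called lower, beside 23.7% of all genes. In progenitors 1 of 11 was called higher, beside 8.20%. In mesothelial cells 1 of 12 was called lower, beside 6.76%, and this was H2-D1 at 2017 and 1301 CPM.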

How the data were processed

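The deposited tables hold UMI counts per gene and cell barcode, and the deposited barcode with the fewest had 1401 UMIs. The authors' tools were Cell Ranger and Seurat and their build mm10, per the submitters' processing notes, without versions. Gene coordinates are from GENCODE on GRCm38 and promoters from RefSeq on GRCm38.p6.

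The members, gene lists and subsets were chosen with earlier results of these data known. Cells were kept with at least 500 genes, 1000 UMIs and at most 20% mitochondrial UMIs. Doublets called by Scrublet were left out. Its threshold called 183 NCD cells but 0 HFD cells, so 403 HFD cells with the highest 5% of scores, all ties included, were taken instead. Both libraries were clustered together without integration by the Leiden method (24 clusters, split into 75), and 16 of the 37 members were among the 2000 variable genes. A cluster was named by its markers, with a prior of 10 CPM, at least 3 markers at 1.5-fold, and among its 10 leading genes no more markers of a different class than of its own. This naming was the third version tried. The prior, the setting aside of haemoglobin genes, erythroid and adipocyte names, and the removal of F13a1 from the monocyte markers, which departs from the list set for them, were chosen after the clusters were seen. The rule that gave each single cell a class, used as an alternative, was also replaced after its output was seen.

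Counts were summed per class and library. Sums, shares and ratios have exact Poisson, Clopper-Pearson and conditional binomial 95% intervals. Ratios against 0 UMIs used 3 in its place. With 1 library per diet no test was run. For co-detection, cells were thinned to 1400 UMIs. Named in full were members with at least 50 CPM, up to 5 each way by the interval end nearest to 1, and the 3 highest, and pathway genes with at least 50 CPM, up to 4 each way. Others named were chosen after their values were seen. The code was checked on simulated counts, with changed genes at or above 100 CPM only. Python 3.11.15, scanpy 1.11.5, scikit-learn 1.9.0 and scipy 1.17.1 were used.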

Additional observations from a re-analysis of the deposited data

Results flagged for a closer look

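The following 4 members were called in opposite directions in different classes, and the difference between classes was not tested. Values are log2 HFD over NCD. Cxcl9 was at −1.78 in macrophages, 5.69 in progenitors, −1.58 in endothelial cells and, as a bound, 1.64 in T cells. Cxcl10 was at −1.27 in macrophages and 0.73 in progenitors. Psmb8 was at 0.79 in progenitors and −0.69 in endothelial cells, and Psmb9 at 0.78 in progenitors, −0.84 in endothelial cells and 0.65 in T cells. Without the 11 cells of cluster 2.0, Cxcl10 in progenitors was at −0.34 and Cxcl9 at 3.24. The direction of Cxcl9 in macrophages rests on 2 NCD cells.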

How the results depend on the processing

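The spread of a median was taken as the counting error of a median, a rule narrowed after the first values were seen. Medians of log2 HFD over NCD changed as follows. In endothelial cells the median of −0.67 was 0.04 with free RNA subtracted, −0.30 in low free RNA clusters, −0.37 with a class per cell and −0.88 as a mean of per-cell CPM. In macrophages −0.81 became −0.68 with a class per cell and −0.57 as a mean of per-cell CPM. In progenitors 0.15 became 0.06 without cluster 2.0 (an alternative chosen after seeing the data), 0.36 with median-ratio scaling and 0.25 with free RNA subtracted. In T cells −0.04 became 0.33 in low free RNA clusters and 0.29 with free RNA subtracted, and B cell medians lay between −0.29 and 0.11. Without thinning, the HFD minus NCD share with at least 3 antiviral genes was −3.01 points in macrophages (−0.722 thinned), −2.28 in progenitors (−0.0679) and −19.3 in endothelial cells (−6.38). The small progenitor difference was 0.172 in low free RNA clusters, 0.0139 at 2000 UMIs and 0.129 for at least 2 genes, and that of T cells (−1.29) was 0.227 at 2000 UMIs.

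Single members that changed sign were Cxcl10 in progenitors (−0.34 without cluster 2.0), Isg15 (0.06), Rtp4 (0.24), Bst2 (0.00) and Gbp7 (0.39) in endothelial cells with free RNA subtracted, and Ifitm2 in T cells (−0.21 in low free RNA clusters, −1.16 subtracted) and B cells (−0.14 and −0.52). The causes were not tested. Leaving out the 2 NCD macrophages with at least 10 Cxcl9 UMIs, also chosen after seeing the data, turned the Cxcl9 difference in macrophages (0.688 against 4.24 CPM). Counts of called members changed by over 1.5 times as follows. A filter of 30 CPM left 9 lower in macrophages (from 16) and 3 higher and 0 lower in progenitors (from 6 and 1). No filter gave 3 lower in progenitors, and the total without mitochondrial and ribosomal genes gave 2 there. A fold of at least 2 left 1 higher and 0 lower in progenitors, 7 lower in endothelial cells (from 14), and 2 higher and 1 lower in T cells (from 4 and 2). Endothelial cells had 5 lower and 1 higher in low free RNA clusters, and 7 lower and 1 higher with a class per cell. T cells had 1 higher and 0 lower with a class per cell, 2 higher in low free RNA clusters, 2 higher at 30 CPM, 4 lower when clustered without interferon genes, and 1 lower with median-ratio scaling. B cells, with 1 higher and 0 lower, had 3 higher with a class per cell, 0 higher and 1 lower in low free RNA clusters, and 1 lower with the stricter cell filter or the total without mitochondrial and ribosomal genes. For mesothelial cells the class per cell and the low free RNA clusters left under 20 HFD cells and gave no value. No paired analysis was possible because there was 1 library per diet. Leaving out a replicate was not possible for the same reason. Mx1, under 10 CPM in all 6 classes, and Ifi44, under it in all but endothelial cells, are limited by depth.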
